A study of Mus musculus with 13 samples.

Results

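The transcripts described here are those of the adult haemoglobin genes Hba-a1, Hba-a2, Hbb-bs and Hbb-bt and of Alas2, the haem enzyme of red cell precursors. These 5 genes were taken by symbol from the 42416 Ensembl identifiers counted in each library. The rule that names them holds no measured value, but it was written with earlier results of these data known. All 5 passed the filter on low counts, more than 1 CPM in at least 5 libraries, together with 13360 genes in all. CPM are counts per M counts of a library, scaled here with TMM factors.

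The tissue was interscapular brown fat (iBAT), and each of the 13 bulk RNA libraries came from a mouse of its own. The 8 iFAXLKO mice were floxed for Axl (loxP-Axl-loxP) and Cre positive, and the 5 WT mice were floxed for Axl and Cre negative, so that both groups carried the loxP sites. All 13 mice were kept at room temperature, ate a high-fat diet (HFD) and were given tamoxifen every 3 weeks. The study's methods give Adipoq-CreERT2, a tamoxifen-dependent Cre on a bacterial artificial chromosome carrying Adipoq, so that deletion is aimed at adipocytes and the other cells of the tissue keep Axl. By the same methods, the first doses and the diet began between 6 and 8 weeks of age, mice with a tissue-specific deletion were female, and littermates served as controls. Age at sampling is not given in the sources used here, and neither the labels nor the methods mention perfusion of the tissue.

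Haemoglobin is a tetramer of alpha and beta globin chains, each of which holds a haem group. Red cell precursors make globin messenger RNA in very large amounts, and young red cells without a nucleus still carry it in the blood. ALAS2 catalyses the first step of haem synthesis in these precursors, whereas its relative ALAS1 does so in other cells. In a piece of solid tissue, globin transcripts are commonly taken as a gauge of the blood it contained.

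The adult alpha globins come from a pair of genes on chromosome 11 and the adult beta globins from a pair on chromosome 7. In the GENCODE M21 annotation of GRCm38, Hba-a1 (ENSMUSG00000069919) lies at chr11:32283511-32284465 and Hba-a2 (ENSMUSG00000069917) at chr11:32296489-32297298, both on the plus strand. Hbb-bs (ENSMUSG00000052305) lies at chr7:103826534-103828096 and Hbb-bt (ENSMUSG00000073940) at chr7:103812524-103813996, both on the minus strand. Alas2 (ENSMUSG00000025270) lies at chrX:150547375-150570638 on the plus strand.

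Within each pair, the coding sequences are nearly the same, which bears on how their reads were divided. Hba-a1 and Hba-a2 share all but 1 of 429 coding bases (99.8% identity), and Hbb-bs and Hbb-bt all but 1 of 444 (99.8%). The 41 coding bases around each difference are shown 5′ to 3′, from the annotated transcripts, with the differing base in capitals. It is coding base 381 of the alpha pair and coding base 417 of the beta pair, counted from 1 at the start codon.
Hba-a1: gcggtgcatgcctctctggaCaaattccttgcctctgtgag
Hba-a2: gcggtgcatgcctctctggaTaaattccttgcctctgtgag
Hbb-bs: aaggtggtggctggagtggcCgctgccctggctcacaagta
Hbb-bt: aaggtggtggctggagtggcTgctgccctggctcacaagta
Of all stretches of 100 bases in the transcript, 56.5% of those of Hba-a1 also occur in Hba-a2, and 62.6% of those of Hbb-bs also occur in Hbb-bt. Seen from the other gene of each pair, the shares were 74.5% for Hba-a2 and 54.8% for Hbb-bt. Read length and the handling of reads with several matches are not given in the sources used here, so the division of counts within a pair is uncertain. Had shared reads been left out instead of divided, the sum of a pair would be too low as well, by an unknown amount. The levels, sums and shares of the globins carry this limit.

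The promoters of the members are shown because these genes are switched on together in red cell precursors. Each sequence is the 250 bases before the transcription start in RefSeq (GRCm38.p6), read 5′ to 3′ on the strand of the gene. Capitals mark letters on either strand. The core that GATA factors bind reads GATAA, or in reverse, when it lies on the other strand, TTATC. The element bound by KLF1 and its relatives reads CACCC, or in reverse it reads GGGTG. The CCAAT box reads in reverse as ATTGG. The TATA box reads TATAA, or in reverse it reads TTATA, and its forward and reverse letters can overlap. The Hba-a2 promoter is chr11:32296242-32296491 on the plus strand, that of Hbb-bs chr7:103827929-103828178 and that of Hbb-bt chr7:103813924-103814173, both on the minus strand, and that of Alas2 chrX:150547167-150547416 on the plus strand.
Hba-a2: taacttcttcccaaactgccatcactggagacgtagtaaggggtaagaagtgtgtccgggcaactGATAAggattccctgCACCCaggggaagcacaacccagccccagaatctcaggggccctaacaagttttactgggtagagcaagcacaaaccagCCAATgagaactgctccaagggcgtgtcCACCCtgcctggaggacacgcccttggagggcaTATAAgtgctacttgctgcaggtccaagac
Hbb-bs: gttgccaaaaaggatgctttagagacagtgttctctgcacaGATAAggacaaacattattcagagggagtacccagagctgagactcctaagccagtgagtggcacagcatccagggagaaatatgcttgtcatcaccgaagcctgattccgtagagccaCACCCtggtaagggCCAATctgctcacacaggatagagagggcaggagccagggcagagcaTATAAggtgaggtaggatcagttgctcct
Hbb-bt: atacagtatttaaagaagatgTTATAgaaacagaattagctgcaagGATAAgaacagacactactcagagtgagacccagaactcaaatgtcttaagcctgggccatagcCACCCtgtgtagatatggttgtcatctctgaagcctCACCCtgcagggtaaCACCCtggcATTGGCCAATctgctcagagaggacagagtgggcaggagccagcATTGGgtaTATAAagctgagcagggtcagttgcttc
Alas2: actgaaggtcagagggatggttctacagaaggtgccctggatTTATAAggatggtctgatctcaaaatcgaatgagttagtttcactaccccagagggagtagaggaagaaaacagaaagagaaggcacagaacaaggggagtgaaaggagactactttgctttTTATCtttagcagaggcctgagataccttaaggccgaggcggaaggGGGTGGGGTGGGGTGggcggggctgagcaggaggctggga
Hba-a1 (chr11:32283422-32283671, plus strand) is not printed, since it shares a run of 247 identical bases with Hba-a2. The longest run shared by Hbb-bs and Hbb-bt was 14 bases, much shorter than within the alpha pair.

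All 5 promoters held the GATA, CACCC and TATA letters, a combination found in 2.69% of the 27025 promoters of the same length. The 4 globin promoters also held CCAAT, and 1.01% of all promoters held the 4 motifs. One at a time the motifs were common, with GATAA in 23.0%, CACCC in 51.3%, CCAAT in 34.5% and TATAA in 23.5% of promoters. In the globin genes, TATAA began 27 bases before the start of Hba-a1, 30 before that of Hba-a2, 29 before that of Hbb-bs and 28 before that of Hbb-bt. Alas2 differed in its layout, with TATAA 207 bases before the start, its GATA letters on the reverse strand at 86 bases, and GGGTG in tandem at 40, 35 and 30 bases. These matches are of letters only, and no binding was measured.

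Total counts were 22.44 to 32.6 M per library, and mitochondrially encoded genes took 18.33% to 21.31% of them. The targeted gene, Axl, showed no fall under the iFAXLKO label, at 33.1 ± 6.16 CPM (SD, n = 8) against 27.8 ± 3.82 (n = 5; log2 fold change 0.25 ± 0.13 SE, edgeR quasi-likelihood test with Benjamini-Hochberg adjustment, adjusted p = 0.699), so that "labelled" is meant wherever iFAXLKO is written. The brown adipocyte markers were present in both groups, at levels that differed widely from marker to marker. Ucp1, the uncoupling protein of brown fat, stood at 5599 ± 1121 CPM in iFAXLKO and 6367 ± 914 in WT. Prdm16, the lowest of them, stood at 26.3 ± 7.16 and 23.4 ± 5.75 CPM. The WT 2 library stood apart: its log2 CPM fell by 0.168 per doubling of a gene's exon length relative to the mean library, against slopes of -0.024 to 0.066 in the other 12, and its TMM factor was 0.897 against 0.952 to 1.063. Since the globin transcripts are short and WT 2 had the highest level of each among the WT mice, the members' results are given with and without it. Whether the length trend had a part in its globin levels was not tested beyond a fit with the trend removed, given with the folds. Groups could not be told apart by depth, as their totals overlapped.

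Per length of transcript, the beta globin Hbb-bs had the highest level of the members and Alas2 by far the lowest. On the scale of CPM per kb of exon, the mean level over the 13 libraries was 339 ± 93.9 (SD) for Hbb-bs, ranked 138 of the 13360 genes tested, and 131 ± 39.0 for Hba-a1, ranked 323. Hba-a2 followed at 106 ± 30.2 (rank 392) and Hbb-bt at 63.7 ± 16.9 (rank 619). Alas2 stood at 6.30 ± 1.76 (rank 5024). The 5 genes kept this order in 13 of 13 libraries. Within a pair, though, the order depends on how shared reads were handled, which is uncertain. The levels per kb and the ranks of all the globins carry the same limit. Across libraries the ranges of neighbouring globins overlapped, so that the order holds within a mouse but not from any mouse to any other. Only Alas2 did not overlap its neighbour, with Hbb-bt per kb at 8.93 to 13.5 times Alas2 in the same library.

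In the alpha pair, means were higher in iFAXLKO, and the groups overlapped through WT 1 and WT 2. Hba-a1 stood at 93.8, 157, 74.2, 59.1 and 72.2 CPM in WT mice 1 to 5, and in the 8 iFAXLKO mice its lowest value was 79.8, its median 116 and its highest 150 CPM. WT 2 was above every iFAXLKO mouse, WT 3, 4 and 5 were below every one, and WT 1 lay in the lower part of their range. The means were 115 ± 24.6 CPM in iFAXLKO (SD, n = 8) and 91.3 ± 38.9 in WT (n = 5). The log2 fold change was 0.34 ± 0.22 (SE), which the edgeR quasi-likelihood test with Benjamini-Hochberg adjustment did not call (adjusted p = 0.770; exact permutation test over samples, 2-sided, p = 0.125). Hba-a2 traced the same pattern across the mice. It stood at 62.1, 103, 50.8, 41.9 and 46.1 CPM in WT 1 to 5, and at 55.0 to 96.9 CPM, median 77.2, in iFAXLKO. WT 2 was again the highest of all 13, and WT 3, 4 and 5 were again below every iFAXLKO mouse. Its means were 77.1 ± 15.0 CPM (n = 8) and 60.8 ± 24.9 (n = 5), with a log2 fold change of 0.34 ± 0.20 and an edgeR adjusted p of 0.748 (exact permutation p = 0.104).

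In the beta pair, means were again higher in iFAXLKO, within the spread between mice. Hbb-bs stood at 226, 372, 190, 147 and 183 CPM in WT 1 to 5, and at 204 to 359 CPM, median 286, in iFAXLKO. WT 2 was above all 8 iFAXLKO mice, WT 3, 4 and 5 were below all of them, and WT 1 lay inside their range. The means were 283 ± 54.7 CPM (n = 8) and 224 ± 87.6 (n = 5), a log2 fold change of 0.34 ± 0.20 that was not called (edgeR adjusted p = 0.744; exact permutation p = 0.102). Hbb-bt, encoded by the other adult beta gene, stood at 38.4, 61.3, 29.0, 26.9 and 32.6 CPM in WT 1 to 5, and at 34.8 to 59.3 CPM, median 49.7, in iFAXLKO. Here 7 of 8 iFAXLKO mice were above the WT mean, against 6 of 8 for the other globins, none was above WT 2, and WT 3, 4 and 5 were below all 8. Its means were 49.3 ± 8.53 (n = 8) and 37.6 ± 13.9 CPM (n = 5), and its log2 fold change was 0.39 ± 0.18 (edgeR adjusted p = 0.685; exact permutation p = 0.0567).

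Alas2 had the largest fold of the members. It stood at 14.7, 15.5, 9.65, 9.74 and 10.2 CPM in WT 1 to 5. In iFAXLKO it stood at 11.7 to 22.0 CPM, with a median of 16.3. WT 1 and 2 lay inside the iFAXLKO range and WT 3, 4 and 5 below it, and 5 of 8 iFAXLKO mice were above the highest WT mouse. The means were 17.1 ± 3.78 CPM (n = 8) and 12.0 ± 2.89 (n = 5), with a log2 fold change of 0.52 ± 0.17. It was not called by the edgeR quasi-likelihood test with Benjamini-Hochberg adjustment over the 13360 genes (adjusted p = 0.490; unadjusted, 0.0081). DESeq2 gave an adjusted p of 0.219, and the exact permutation test p = 0.0194, for which the smallest possible value is 0.000777.

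**Figure D1:**
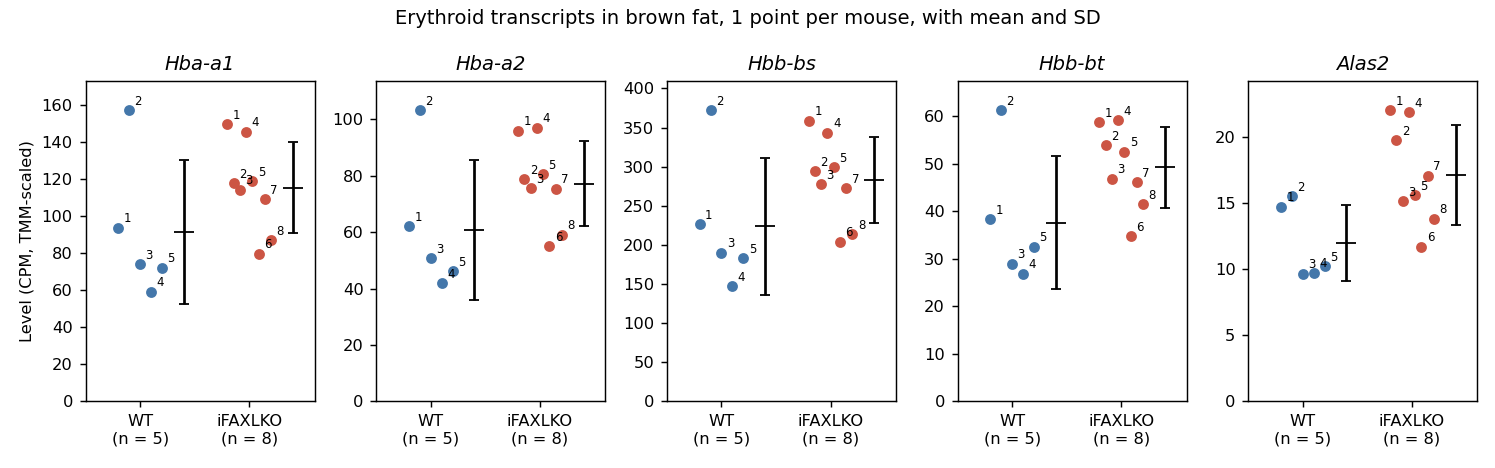
Level in CPM (vertical axis, from 0, a scale per gene) of each of the 5 genes by group, 1 numbered point per mouse, with the group mean and SD beside the points. WT 2 is the highest point of each globin panel, whereas 5 of 8 iFAXLKO points lie above every WT point for Alas2.

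Of the 5 members, 0 were called by edgeR at an adjusted p under 0.05, against 0.127% of all genes tested (17 of 13360), and DESeq2 also called 0, against 0.502%. At an unadjusted p under 0.05, edgeR had 1 of 5, Alas2, in a background of 7.38% in either direction and 3.84% higher in iFAXLKO. For 0 of 5 were the ranges of the groups apart, against 0.434% of all genes. All 5 fold changes were above 0, as were 46.4% of those of all genes, whose median was -0.01. The 5 directions are not separate pieces of information, since the members rose and fell together from mouse to mouse. A bulk level cannot tell fewer red cells from less transcript per red cell.

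The size of the differences changed with WT 2 and with how libraries were weighted. In the full fit, the members' unadjusted edgeR p was 0.0081 to 0.143. Without WT 2, the log2 fold changes were 0.62 for Hba-a1, 0.62 for Hba-a2, 0.60 for Hbb-bs, 0.64 for Hbb-bt and 0.63 for Alas2. For the globins these were more than 1.5 times the full values. Still none was called (edgeR adjusted p from 0.137 to 0.233, unadjusted from 0.000516 to 0.0035). Leaving out WT 4, the lowest globin library, brought Hba-a1 to 0.22, Hbb-bs to 0.22, Hba-a2 to 0.24 and Hbb-bt to 0.29, so that WT 4 alone also moved the first 2 by more than 1.5 times, while Alas2 stood at 0.45. Without WT 4, the unadjusted edgeR p ran from 0.0264 for Alas2 to 0.331 for Hba-a1. Limma-voom with quality weights, which gives each library its own weight, put the 5 log2 fold changes at 0.68, 0.66, 0.66, 0.68 and 0.70, from Hba-a1 to Alas2 in the order above. It also called none (adjusted p from 0.0801 to 0.162, unadjusted from 0.000225 to 0.00109). With the trend over exon length removed in every library, an alternative chosen after the data were seen, the 5 values were 0.36, 0.37, 0.36, 0.40 and 0.52 in the order given. None was called (unadjusted edgeR p from 0.00325 to 0.0329). The labels number the libraries, and the numbers fall into a lower range, with 4 iFAXLKO and 2 WT mice, and an upper range, with 4 and 3. Within the lower range, which holds WT 2, the log2 ratio was 0.11 for Hba-a1, 0.11 for Hba-a2, 0.13 for Hbb-bs, 0.17 for Hbb-bt and 0.37 for Alas2. In the upper range it was 0.51, 0.53, 0.50, 0.56 and 0.54 for the same genes. These are values with no test, and the labels do not say what the numbers stand for.

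**Figure D2:**
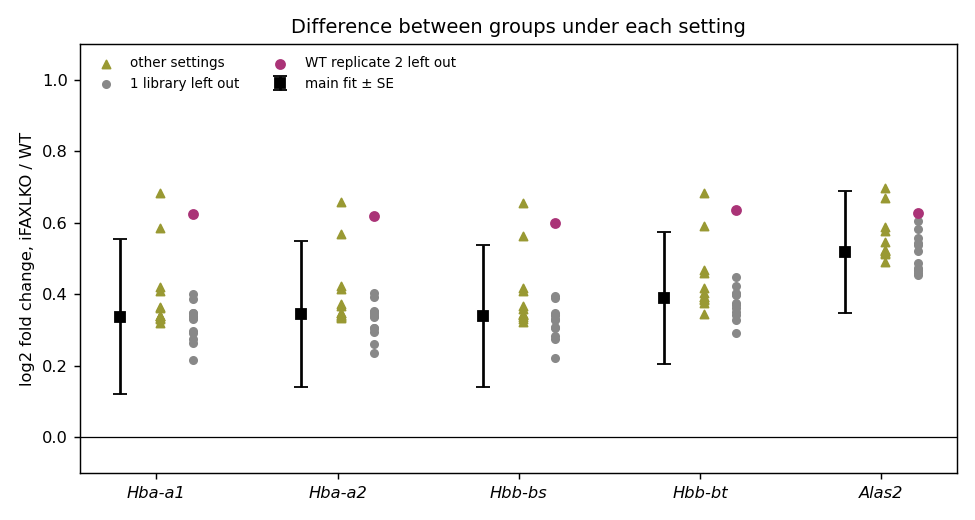
Log2 fold change of iFAXLKO over WT (vertical axis) for each gene, with the full fit and its SE as a square, each leave-one-out fit as a dot and other settings as triangles. Every value lies above 0, and leaving out WT 2 gives 0.60 to 0.64.

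Summed over the 4 globins, and without any shared reads that were left out, haemoglobin transcripts were a small part of the tissue's counts. They took 0.0534 ± 0.0111% of all counts in iFAXLKO (SD, n = 8) and 0.0398 ± 0.0135% in WT (n = 5), with 0.0281% in the lowest and 0.0686% in the highest library. The summed level was 420, 694, 344, 275 and 334 CPM in WT 1 to 5, and 374 to 663 CPM, median 529, in iFAXLKO. WT 2 was above all iFAXLKO mice, WT 3, 4 and 5 were below all of them, and WT 1 lay inside their range. The means were 525 ± 102 and 413 ± 165 CPM, a log2 ratio of the group means of 0.34, and the WT mean was 343 ± 59.7 CPM without WT 2 (n = 4). No p is given for a sum or ratio of the members.

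The proportions among the globins hardly moved while their level moved by more than 2-fold. As shares of counts, not corrected for length, the alpha genes took 36.6 ± 0.54% of the globin counts in iFAXLKO and 36.6 ± 0.80% in WT, with every library between 35.4% and 37.6%. Hba-a1 took 59.8 ± 0.59% of the alpha counts in iFAXLKO and 59.9 ± 0.96% in WT. For that share the spread over the 13 libraries, an SD of 0.72, was no larger than the 0.74 that counting alone gives, so differences between mice were not detectable at this depth. Hbb-bt took 14.9 ± 0.71% of the beta counts in iFAXLKO and 14.5 ± 0.85% in WT. Its SD of 0.76 over the libraries was larger than the counting SD of 0.41. The division within a pair carries the uncertainty of the shared sequence shown above. The alpha share compares sums of pairs, which would also lose counts if shared reads were left out.

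Alas2 was less tightly tied to the globins. Per 1000 globin counts there were 35.0, 22.4, 28.1, 35.4 and 30.5 Alas2 counts in WT 1 to 5, and 28.3 to 36.3, median 33.5, in iFAXLKO. WT 2 was the lowest of the 13, and the other 12 libraries lay between 28.1 and 36.3, with both groups across that span. The means were 32.6 ± 2.69 and 30.3 ± 5.38, and the WT mean was 32.2 ± 3.54 without WT 2, so the groups differed by less than the spread between mice. The counting SD was 1.63.

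**Figure D3:**
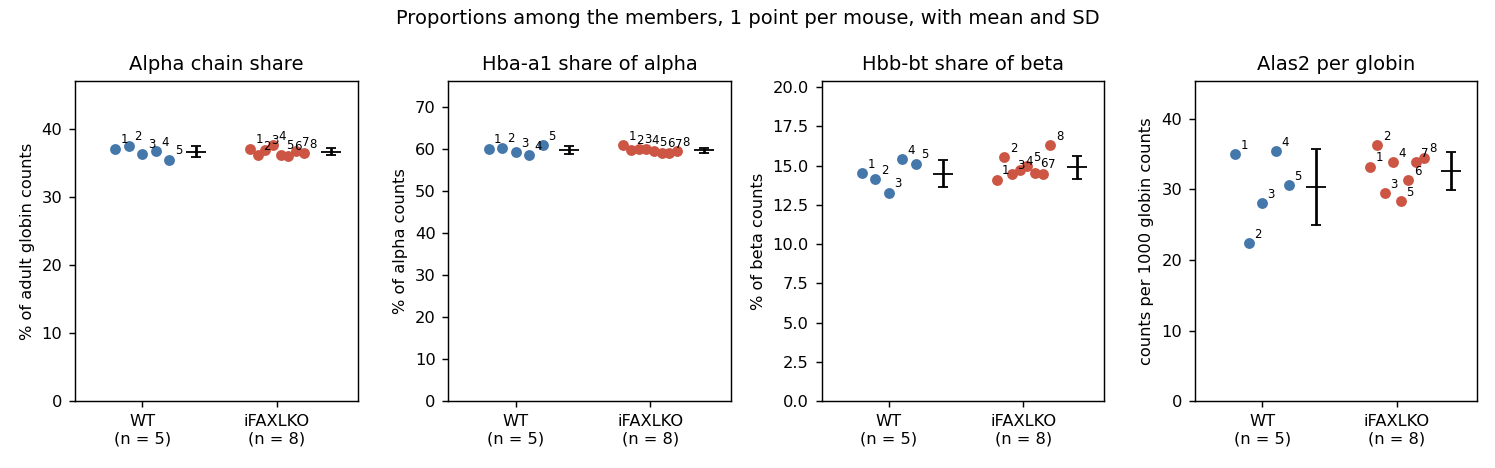
Share of alpha chain counts, share of Hba-a1 within alpha, share of Hbb-bt within beta (all %), and Alas2 counts per 1000 globin counts (vertical axes from 0), 1 numbered point per mouse with the group mean and SD. The shares lie in narrow bands in both groups, and WT 2 lies lowest for Alas2 at 22.4.

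From mouse to mouse, the 5 transcripts moved together. With group means subtracted, the log2 CPM of Hbb-bs had a Pearson r of 0.997 with Hba-a1, 0.993 with Hba-a2 and 0.975 with Hbb-bt over the 13 libraries (Spearman's rho 0.995, 0.984 and 0.956). Each globin had a permutation p of 1e-05 for r, the smallest that 100000 resamples can give, adjusted over 13 relations to 4.33e-05. With Alas2, r was 0.860 and rho 0.912 (permutation p = 0.00014, adjusted 0.000455). For rho the adjusted permutation p was 6.5e-05 for both alpha genes, 8.67e-05 for Hbb-bt and 0.000163 for Alas2. Leaving out WT 2 and WT 4, the libraries farthest from the median of Hbb-bs, r was 0.995, 0.989, 0.945 and 0.902 for Hba-a1, Hba-a2, Hbb-bt and Alas2, so the relations did not rest on those mice. Within the lower and upper ranges of library numbers r was 0.998 and 0.996 for Hba-a1, 0.996 and 0.973 for Hba-a2, 0.983 and 0.893 for Hbb-bt, and 0.631 and 0.734 for Alas2, with 6 and 7 libraries. All values of a library share its depth and scaling, and the paralogs of a pair may share reads.

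**Figure D4:**
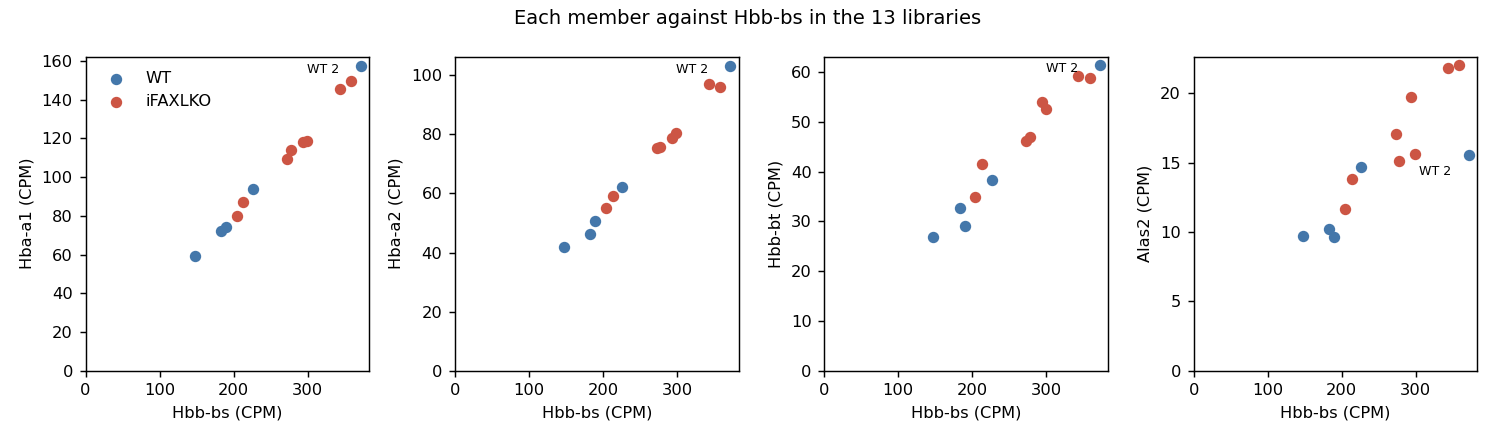
Level of Hba-a1, Hba-a2, Hbb-bt and Alas2 (vertical axes, CPM) against Hbb-bs (horizontal axis, CPM) in the 13 libraries, coloured by group. Globin points run along a line through both groups, and WT 2 lies off the run of points for Alas2, where r with group means subtracted was 0.860.

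The other relations computed, 9 of the 13, did not pass. Slc4a1, the anion exchanger of the red cell membrane, had r = 0.57 (rho 0.56, adjusted permutation p 0.103 for r and 0.131 for rho) at only 0 to 16 counts per library. Without subtracting group means, its r was 0.67 (adjusted permutation p = 0.0272). S100a9, a neutrophil gene with 1 to 20 counts, had r = 0.56 (rho 0.45, adjusted 0.103 and 0.242), and S100a8, with 0 to 9 counts, r = 0.34 (rho 0.30, adjusted 0.376 and 0.454). These 3 blood cell genes were close to the floor of the measurement. The endothelial genes Pecam1 and Cdh5 had r = 0.07 and -0.39 (rho 0.12 and -0.17, adjusted permutation p for r 0.90 and 0.308). Without WT 2 and WT 4, r was 0.69 for Pecam1 (adjusted permutation p = 0.0503) and 0.43 for Cdh5 (0.272), so both values, and the sign for Cdh5, rested on those 2 libraries. Hmox1, which breaks down haem, had r = 0.02, Ucp1 0.29, the muscle actin Acta1 0.41 and the collagen Col1a1 0.10 (rho 0.16, 0.41, 0.54 and 0.21, adjusted permutation p for r from 0.308 to 0.953). Without the same 2 libraries, r was 0.26 for Hmox1, -0.08 for Ucp1, 0.50 for Acta1 and 0.48 for Col1a1. For Slc4a1, S100a9 and S100a8 it was 0.61, 0.39 and -0.09. None of the 9 passed without them, though most values, and the sign for Cdh5, Ucp1 and S100a8, changed.

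By the same measure, and over genes with at least 10 counts in at least 5 libraries, the patterns nearest to Hbb-bs were those of the other 3 globins. The 10 genes outside the members that came closest to Hbb-bs were Polr2l, a subunit of RNA polymerases (r = 0.93), Nfkbib, an inhibitor of NF-kB (0.93), Mrpl57, of the mitochondrial ribosome (0.91), Trappc4 (0.91), Fdx1, a ferredoxin (0.90), Rbm42, Snrpd3, Malsu1, Ubald2 and Alkbh3 (0.89 to 0.90). None of these is on the red cell or haem lists used here, and their log2 fold changes were -0.15 to 0.00 (10 of 10 below 0). Alas2 was at rank 32 with all libraries and at rank 5, next after the globins, without WT 2, an alternative chosen after the data were seen. Bpgm, which makes the haemoglobin ligand 2,3-bisphosphoglycerate, had r = 0.85 at rank 39, and 0.70 at rank 139 without WT 2. These correlations are descriptions over 13 libraries that share their scaling, with no p, and the ranks depended on WT 2.

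Other genes of the red cell and of haem were read from lists of known genes. Of 48 genes in 5 lists beside the members, 22 passed the filter on low counts, and edgeR called 0 of the 22 after adjustment. Of the 22, 2 had an unadjusted edgeR p under 0.05, beside 7.38% of all genes tested. DESeq2 called 1, beside 0.502% of all genes. Among the globins of other times and places, 2 of 9 were tested. The embryonic genes Hba-x, Hbb-y, Hbb-bh1 and Hbb-bh2 had 0 counts in all 13 libraries, where 3 counts, the limit that a count of 0 allows, are 0.0920 to 0.134 CPM. Myoglobin (Mb), the oxygen store of muscle, stood at 107 ± 71.3 CPM in iFAXLKO and 119 ± 35.5 in WT (log2 fold change -0.15, edgeR adjusted p = 0.972). Cytoglobin (Cygb) stood at 20.7 ± 1.84 and 17.5 ± 1.95 CPM (log2 fold change 0.24 ± 0.09, unadjusted p = 0.0126, edgeR adjusted p = 0.513), higher than the WT mean in 7 of 8 iFAXLKO mice.

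Genes of the general haem pathway had fold changes near 0. All 8 of its genes were tested and 0 were called. Of them, 2 had fold changes above 0 and 6 below, beside 46.4% above 0 among all genes tested. The median was -0.05, with a range of -0.12 to 0.02. Alas1, the relative of Alas2 found in most cells, stood at 355 ± 139 CPM in iFAXLKO and 387 ± 141 in WT (log2 fold change -0.12 ± 0.29, edgeR adjusted p = 0.969). Fech, which inserts iron into haem, stood at 106 ± 10.3 and 108 ± 9.51 CPM (-0.03 ± 0.08, edgeR adjusted p = 0.979). Urod and Alad, enzymes between these steps, had log2 fold changes of -0.08 and -0.03 (edgeR adjusted p = 0.918 and 0.982).

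Markers of the red cell membrane were near the floor. Of 12 genes, 4 passed the filter, with 0 called and a median log2 fold change of -0.12, and those 4 have known roles outside red cells as well: Epb41, Ank1, Xk and Sptb. Epb41, protein 4.1, stood at 123 ± 16.1 CPM in iFAXLKO and 108 ± 18.0 in WT (log2 fold change 0.19 ± 0.12, edgeR adjusted p = 0.752). Slc4a1 stood at 0 to 0.36 CPM in WT and 0.0764 to 0.586 CPM in iFAXLKO, that is 0 to 16 counts per library. Rhag had 0 counts in every library. The summed level of the list was 97.0 to 147 CPM in WT and 117 to 169 in iFAXLKO. Most of that sum was Epb41, at 79.3 to 147.5 CPM over all libraries, so it is not a measure of red cells.

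Of 10 red cell enzymes and chaperones, 3 were tested and 0 were called by edgeR. Bpgm stood at 26.0 ± 2.11 and 23.3 ± 3.49 CPM (log2 fold change 0.16 ± 0.09, edgeR adjusted p = 0.734), and Car2, carbonic anhydrase 2, at 23.4 ± 2.90 and 23.4 ± 2.80 (0.00 ± 0.10, edgeR adjusted p = 0.998). Both differed between the groups by less than the spread between mice. Ahsp, the alpha globin chaperone, could not be matched to an identifier.

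The transcription factors of red cell development were listed together with Epor, the erythropoietin receptor. Of these 9 genes, 5 were tested, with 0 called, 2 above 0 and 3 below, and a median of -0.01. Epor was among the 3 below (log2 fold change -0.11, edgeR adjusted p = 0.945). Ldb1, a widely expressed cofactor, stood at 55.3 ± 4.99 CPM in iFAXLKO and 55.8 ± 4.35 in WT (edgeR adjusted p = 0.989). Zfpm1, Lmo2 and Tal1 had log2 fold changes of -0.07, 0.11 and 0.10 (edgeR adjusted p = 0.924, 0.907 and 0.954). Gata1 and Klf1, the factors best known for driving globin genes, reached at most 2 and 3 counts in a library.

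Genes of iron and of haem clearance had 0 calls, with fold changes on both sides of 0. Of 11 genes of iron uptake and storage, 0 were called, 3 had fold changes above 0 and 8 below, beside 46.4% above 0 among all genes tested, and the median was -0.08. Ferritin heavy chain (Fth1) stood at 1663 ± 125 CPM in iFAXLKO and 1889 ± 598 in WT (log2 fold change -0.18 ± 0.14, edgeR adjusted p = 0.840), with the highest value, 2953 CPM, in WT 2. Slc11a2, an iron transporter, had the list's only unadjusted p under 0.05, at 0.0258 (log2 fold change -0.22 ± 0.09, edgeR adjusted p = 0.609). Of 9 tested genes of haem breakdown and haemoglobin clearance, 0 were called, 4 had fold changes above 0 and 5 below, a split close to that of all genes, and the median was -0.05. Hmox1, the inducible haem oxygenase, stood at 12.0, 11.7, 21, 14.0 and 12.9 CPM in WT 1 to 5 and at 7.22 to 16.1 CPM, median 9.18, in iFAXLKO. Its groups overlapped, with 1 of 8 iFAXLKO mice above the WT mean (log2 fold change -0.52 ± 0.18, unadjusted p = 0.0124, edgeR adjusted p = 0.512). Blvra and Flvcr1, of the same list, also had an unadjusted edgeR p under 0.05, at 0.0490 and 0.0482. Their log2 fold changes were -0.28 ± 0.13 and 0.31 ± 0.14 (edgeR adjusted p = 0.672 and 0.667). Haptoglobin (Hp), which binds free haemoglobin, stood at 648 ± 165 and 670 ± 295 CPM (edgeR adjusted p = 0.987).

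Among other cells carried by blood, the platelet, neutrophil and monocyte genes gave low levels in both groups. Lymphocyte transcripts, which reached a higher sum, are given under the other observations. Of the platelet genes, 3 of 8 were tested, with 0 called and a median log2 fold change of 0.19, and the list summed to 7.46 to 13.6 CPM in WT and 8.40 to 14.4 in iFAXLKO. Pf4, a platelet chemokine, stood at 4.35 ± 1.07 and 3.81 ± 1.34 CPM (edgeR adjusted p = 0.895). Of the neutrophil genes, 2 of 10 were tested, with 0 called, and the list summed to 2.06 to 5.17 CPM in WT and 1.68 to 6.93 in iFAXLKO. The highest of the list, Ltf, Lcn2 and Csf3r, reached 95, 79 and 52 counts in a library. The 2 tested, Lcn2 and Csf3r, both had a log2 fold change of 0.27 (edgeR adjusted p = 0.947 and 0.862). With group means subtracted, r with Hbb-bs was 0.58 for Ltf, 0.60 for Lcn2 and 0.31 for Csf3r. Without WT 2 it was 0.62, 0.49 and 0.24, all values with no p. Ngp, Camp, Cxcr2 and Mmp8, which mark neutrophils, reached no more than 1, 2, 4 and 2 counts in a library. Of the blood monocyte genes, 3 of 6 were tested, with 0 called and a median of 0.46, among them Ccr2 at 3.71 ± 0.76 and 2.46 ± 0.77 CPM (log2 fold change 0.59 ± 0.19, unadjusted p = 0.00824, edgeR adjusted p = 0.490). The monocyte list summed to 4.09 to 8.31 CPM in WT and 5.98 to 8.75 in iFAXLKO. Their part in the members' levels was not tested.

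Lists for cells that reside in the tissue had medians between -0.07 and 0.69. Among all genes tested, 46.4% were above 0, and 3.84% were higher in iFAXLKO with an unadjusted edgeR p under 0.05. DESeq2 called 0.502% of all genes. All 7 macrophage genes were tested, 0 were called, and 7 of 7 had a fold change above 0 with an unadjusted p under 0.05, at a median of 0.39. Their summed level was 80.5 to 116 CPM in WT and 98.2 to 175 in iFAXLKO. The 8 fibroblast genes were all above 0 with an unadjusted p under 0.05, at a median of 0.69, with 0 called by edgeR and 3 by DESeq2, and summed to 381 to 682 CPM in WT and 523 to 1170 in iFAXLKO. Endothelial genes, which line the vessels that hold the blood, gave 8 of 10 above 0 and 0 called, with a median of 0.12 and sums of 888 to 1370 and 1062 to 1598 CPM. Of the 12 brown adipocyte genes, 3 were above 0 and 9 below, with a median of -0.07, and only Adipoq, the adiponectin gene on which the Cre transgene was built, was called (1120 ± 132 against 708 ± 92.7 CPM, log2 fold change 0.66 ± 0.11, edgeR adjusted p = 0.0118). No list gene was called when WT 1 or WT 5 was left out. Whether any of these levels had a part in the members' levels was not tested.

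**Figure D5:**
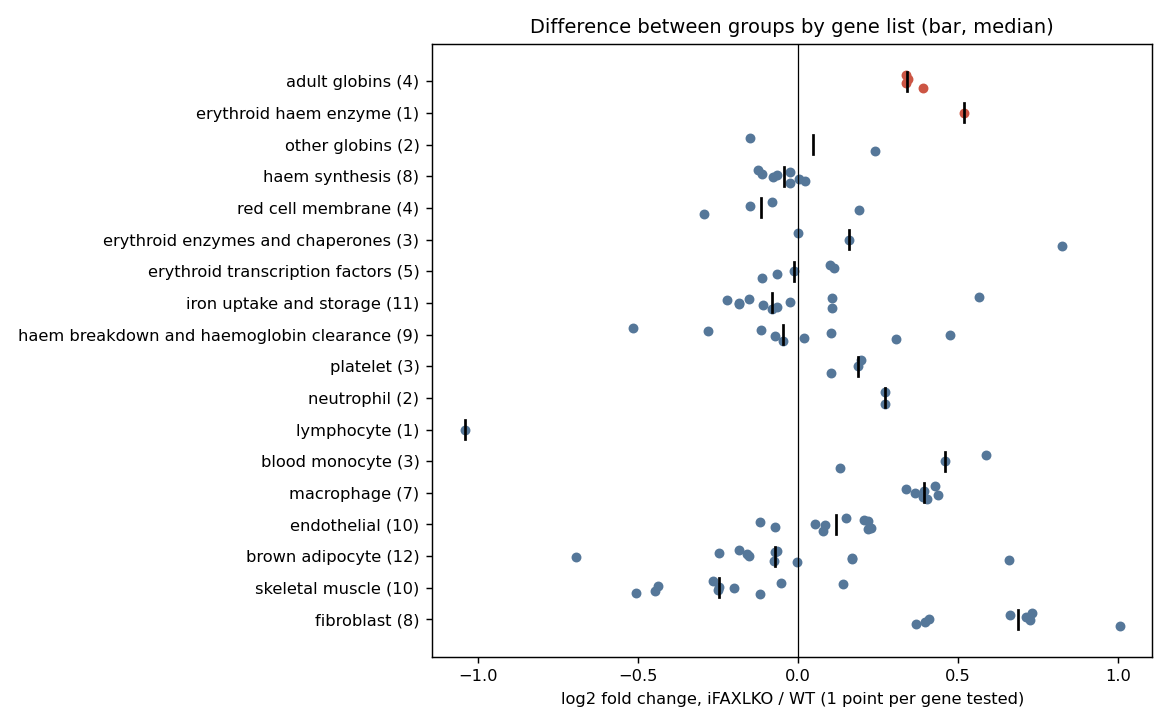
Log2 fold change of iFAXLKO over WT (horizontal axis) for each gene tested, by list (rows, with the number tested), with the list's median as a bar and the 5 members in red. The members lie at 0.34 to 0.52, while the haem synthesis genes lie around 0, at -0.12 to 0.02.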

How the data were processed

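Each deposited file gives 1 library's read counts per Ensembl identifier, as whole numbers that the authors had not normalized. The labels name bcl2fastq 2.20, fastp 0.20.0, STAR 2.7.4a, DESeq2 and GRCm38.p6 in the submitters' processing notes, and polyadenylated RNA, whereas the methods of the study give depletion of ribosomal RNA, Trim Galore, hisat2 and GRCm38. The counting tool, its strand setting and the read length are not given in the sources used here. Without strand, reads of overlapping genes on opposite strands cannot be told apart.

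Counts were tested with edgeR 4.0.16 (quasi-likelihood F test, TMM factors, robust, 2-sided, Benjamini-Hochberg over 13360 genes) in R 4.3.3, without covariates, and checked on simulated counts. Log2 CPM used a prior count of 2. Exact permutation tests compared mean log2 CPM over all 1287 splits, and proportions and permutations used scipy 1.17.1. Alternatives were DESeq2 1.42.0, limma-voom (3.58.1) with quality weights, other scalings and filters, a replicate block, library number as a covariate and each library left out. The members, lists and motifs were chosen with earlier results of these data known. From each list, the genes called and at most 4 with the highest mean CPM were named, beside the genes correlated with Hbb-bs. Other genes, among them those near 0 counts, were named after their values were seen.

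Libraries are separate mice per the labels. Chi-square per degree of freedom between libraries of a group was 15.3 to 86.0, above sampling noise, so each counted as 1 replicate. Symbols were matched for 42263 identifiers and gene models for 42347, and exon length is the union of a gene's exons. Counting SDs and floors leave out any error beyond counting, and PCR copies were not marked by molecular identifiers. Some list genes are counted in the totals but are not reported here one by one.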

Additional observations from a re-analysis of the deposited data

How the results depend on the processing

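The 5 members kept a fold change above 0 in all 134 refits and within-range values, and 0 of the 124 with a test passed (lowest adjusted p 0.0801, Hbb-bt with limma-voom and quality weights). Over the settings other than libraries left out and ranges, Hba-a1 took 0.32 to 0.68, Hba-a2 0.33 to 0.66, Hbb-bs 0.32 to 0.66, Hbb-bt 0.35 to 0.68 and Alas2 0.49 to 0.70. With libraries left out in turn, the values were 0.22 to 0.62, 0.24 to 0.62, 0.22 to 0.60, 0.29 to 0.64 and 0.45 to 0.63. The highest values came with limma-voom, at 0.68, 0.66, 0.66, 0.68 and 0.70. The replicate block gave 0.58, 0.57, 0.56, 0.59 and 0.67, and called 7 genes in all against 17, but replicate numbers do not pair the mice, since correlations of same-numbered libraries ran from -0.61 to 0.42. DESeq2 called 67 genes. Left-out libraries gave 14 to 19. Of the 98 tested genes in the other lists, 1 was called, and RLE factors called 2, no filter 2, DESeq2 5 and limma-voom 2, with 0 to 2 when a library was left out. The cause of these shifts was not tested. The globin sum's log2 ratio was 0.42 as a share of all counts, and 0.23 to 0.61 with libraries left out. With each paralog pair summed, it was 0.34 for alpha and 0.35 for beta. Of the 13 correlations with Hbb-bs, 5 passed without subtracting group means and 4 without WT 2 and WT 4, as in the full set. Depth limits the red cell membrane, neutrophil and embryonic globin genes, which had few counts or 0, not the members, with 242 or more counts in every library.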

Other observations

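Lymphocyte transcripts were highest in WT 1. Ighm, the heavy chain of IgM, stood at 8.18 to 115 CPM in WT and 8.30 to 26.6 in iFAXLKO, and was the only 1 of 8 lymphocyte genes that passed the filter on low counts (log2 fold change -1.04 ± 0.53, edgeR quasi-likelihood test with Benjamini-Hochberg adjustment, adjusted p = 0.709). The summed lymphocyte level was 9.86 to 140 CPM in WT and 10.3 to 33.9 in iFAXLKO. Summed skeletal muscle transcripts ran from 62.7 to 3011 CPM in WT and from 56.4 to 4364 in iFAXLKO. Of the 10 genes, 9 had fold changes below 0 with 0 called, where 46.4% of all genes tested were above 0. Acta1, the actin of skeletal muscle, alone ranged from 0.438 to 1280 CPM.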
